A study of Mus musculus with 16 samples.

Results

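The 33 genes described here carry out cholesterol synthesis, sense sterols, or move and store cholesterol. They were taken by symbol from a deposited transcript table of 29060 named genes, and the list was chosen with earlier results of these data known. Msmo1 stood in the table under its older symbol Sc4mol. All 33 passed the filter on low values that left 15222 genes for testing. They comprise 8 enzymes from acetyl-CoA to the isoprenoids, 11 enzymes from squalene to cholesterol, 5 genes of SREBP control, the 2 LXR receptors and 7 genes of transport, storage, efflux and receptor turnover. The first 19 are termed the synthesis enzymes.

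Cells build cholesterol from acetyl-CoA through mevalonate, farnesyl diphosphate, squalene and lanosterol. When membrane sterol is low, SCAP carries the SREBP precursors to the Golgi, where proteases release the factor that switches on the synthesis genes. INSIG proteins hold the SCAP-SREBP pair back when sterol is plentiful. Oxysterols that build up with cholesterol bind the LXR receptors, whose targets include the efflux pumps ABCA1 and ABCG1 and the ligase MYLIP. In adipose cells much of the free cholesterol sits at the surface of the lipid droplet, and NPC1 and NPC2 move lysosomal cholesterol into the rest of the cell.

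RNA was sequenced from primary preadipocytes of the stromal-vascular fraction of inguinal white or interscapular brown fat, with or without Fgf8b, a splice form of fibroblast growth factor 8. Each of the 4 groups (white control, white Fgf8b, brown control, brown Fgf8b) has 4 libraries, and the cells of every group, controls included, came from C57BL/6N UCP1 reporter mice. Sources used here do not give the age of the mice or the dose and duration of Fgf8b. The design text speaks of 3 independent cultures each, and which of the 4 libraries share a culture is not stated, so the error behind the p-values is the spread of these libraries, part of which may be technical. White libraries are numbered 1 to 8 and brown libraries 9 to 16, with odd numbers for controls and even numbers for Fgf8b, so depot runs with library number. Values per library are listed in the order of these numbers within each group.

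Depths recovered from the deposited values were about 13700000 to 20100000 reads per library. The labels call the cells both preadipocytes and adipocytes. Of 8 mature adipocyte markers 7, Adipoq and Plin1 among them, averaged under 0.1 RPKM in every group. The other, Fabp4, averaged 10.3 RPKM in white controls, 5.82 in white Fgf8b, 18.1 in brown controls and 12.1 in brown Fgf8b libraries. Fabp4 was called lower with Fgf8b in both depots, and higher in brown than in white both under control and under Fgf8b. The summed level of 10 preadipocyte markers was 5486 to 5769 RPKM in white controls, 2188 to 2324 in white Fgf8b, 3620 to 4172 in brown controls and 1002 to 1089 in brown Fgf8b libraries. Its members went both ways: 6 were called lower and 4 higher in white, and 8 lower and 1 higher in brown. The collagen gene Col1a1 fell from a mean of 1776 to 415 RPKM in white, while Dcn rose from 168 to 355 and Lum from 14.4 to 74.7, and Pdgfra rose in brown from 67.5 to 85.3. Zic1, a brown depot gene, averaged 12.8 RPKM in brown and 0.176 in white controls, and Hoxc10, an inguinal one, 2.67 and 45.7. Of 4 brown depot genes 3 were called higher in brown than in white controls and 1 lower, Tbx15, with means of 43 and 48 RPKM. All 4 inguinal genes were called lower in brown controls. Ucp1, the gene of the reporter, was low in all groups. Its mean rose with Fgf8b from 2.31 to 6.25 RPKM in white and from 2.41 to 4.45 in brown. Dusp6, Spry4 and Etv4, 3 genes that FGF signalling switches on, summed to 10.2 to 11.7 RPKM in white controls, 58.7 to 67.1 in white Fgf8b, 7.17 to 8.15 in brown controls and 77.7 to 80.3 in brown Fgf8b libraries. Brown control library 15 stood apart: of the 33 genes it was the highest of the 4 brown controls for 13 and the lowest for 14, and where a count or call described below for these genes uses it and changes without it, both are given. In bulk RNA, fewer cells of a type and less RNA per cell cannot be told apart.

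Promoters are shown for 4 genes on which the results turn: Hmgcs1 and Mvk, early enzymes that fell with Fgf8b in both depots, Tm7sf2, the synthesis enzyme with the largest fall, and Abca1, the efflux pump with the largest change of all 33. Each runs from 250 bases before to 50 bases after the RefSeq start on GRCm38.p6, 5′ to 3′ along the gene, and capitals mark TCACNCCAC, a sterol regulatory element that SREBP binds, and CCAAT, the box bound by NF-Y, each on either strand (CCAAT reads ATTGG on the other). No 2 capital runs overlap. The regions are chr13:119690101-119690400 (plus strand) for Hmgcs1, chr5:114444019-114444318 (plus) for Mvk, chr19:6067801-6068100 (minus) for Tm7sf2 and chr4:53159846-53160145 (minus) for Abca1.
Hmgcs1: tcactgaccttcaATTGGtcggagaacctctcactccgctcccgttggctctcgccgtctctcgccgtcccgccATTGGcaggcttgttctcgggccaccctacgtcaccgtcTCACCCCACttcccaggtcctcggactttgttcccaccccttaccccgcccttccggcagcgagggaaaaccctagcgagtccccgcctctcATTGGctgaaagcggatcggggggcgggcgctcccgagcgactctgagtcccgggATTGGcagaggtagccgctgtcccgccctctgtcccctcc
Mvk: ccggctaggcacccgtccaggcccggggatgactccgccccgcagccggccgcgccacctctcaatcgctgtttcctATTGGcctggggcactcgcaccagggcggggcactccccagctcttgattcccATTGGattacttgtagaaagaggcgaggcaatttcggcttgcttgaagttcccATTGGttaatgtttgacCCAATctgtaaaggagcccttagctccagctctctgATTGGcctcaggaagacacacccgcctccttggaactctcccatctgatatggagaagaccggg
Tm7sf2: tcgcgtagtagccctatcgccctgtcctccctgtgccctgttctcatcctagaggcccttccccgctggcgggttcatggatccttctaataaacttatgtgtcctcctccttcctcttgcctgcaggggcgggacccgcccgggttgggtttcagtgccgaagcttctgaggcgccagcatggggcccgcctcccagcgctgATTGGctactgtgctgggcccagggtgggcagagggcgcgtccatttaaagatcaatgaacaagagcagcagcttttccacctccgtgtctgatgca
Abca1: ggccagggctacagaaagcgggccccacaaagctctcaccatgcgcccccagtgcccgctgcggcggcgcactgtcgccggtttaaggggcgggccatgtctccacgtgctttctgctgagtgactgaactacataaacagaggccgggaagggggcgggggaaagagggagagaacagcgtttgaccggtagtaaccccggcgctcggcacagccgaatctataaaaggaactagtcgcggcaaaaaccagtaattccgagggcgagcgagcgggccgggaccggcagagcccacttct

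The Hmgcs1 window held 1 TCACNCCAC match, which begins 137 bases before the start, and 4 CCAAT boxes, the Mvk window 5 CCAAT boxes, the Tm7sf2 window 1 and the Abca1 window none. RefSeq gave promoters for 27 of the 33 genes, and Fdps, Fdft1, Sqle, Npc1, Stard4 and Abcg1 had no entry in the table. CCAAT was present in a promoter of 22 of these 27 genes (81.5%), against 41.1% of the 27025 genes in the promoter table, with 6 of 7 early enzymes and 9 of 9 squalene and ring enzymes. GGGCGG, the GC box, was present in 23 of 27 (85.2%) against 38.2%, and TCACNCCAC in 1 of 27, Hmgcs1 itself, against 1.44%. Counted by promoter, CCAAT was in 23 of 36 windows of the listed genes (63.9%) against 37.4% of all promoters, and GGGCGG in 27 (75%) against 35.7%. The promoter table was not limited to the genes tested here. These matches describe the letters in the windows and show no binding. Only these exact patterns were searched, so sites spelled otherwise or outside the windows were not counted.

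With Fgf8b, white preadipocytes showed a split response across the synthesis enzymes and brown preadipocytes a fall in most of them. In white cells 7 of the 19 were called higher and 8 lower at an adjusted p of 0.05 (limma on log2 of RPKM summed over a gene's transcripts plus 0.5), with a median log2 change of -0.02. In brown cells none was called higher and 16 were called lower, with a median log2 change of -0.43. The background is high: of all 15222 genes 65.7% were called in white (36.3% higher, 29.5% lower, median log2 change 0.04) and 71.4% in brown (36.7% higher, 34.7% lower, median 0.01). With the RPKM as deposited, the white shares of higher and lower genes were thus not far from the background, while 16 of 19 lower in brown is a larger share than the 34.7% of all genes. With scaling by the median of ratios or by the upper quartile, 3 of the 19 (Acat2, Fdps and Pmvk) were called higher and 9 lower in white, and 17 lower in brown. Of all 15222 genes, these 2 scalings called 4743 and 4738 higher and 5086 and 5100 lower in white. In brown they called 5752 and 6108 lower. The statement on the white shares therefore holds for the RPKM as deposited only. Without brown control 15 the brown counts were 0 higher and 17 lower.

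**Figure D1:**
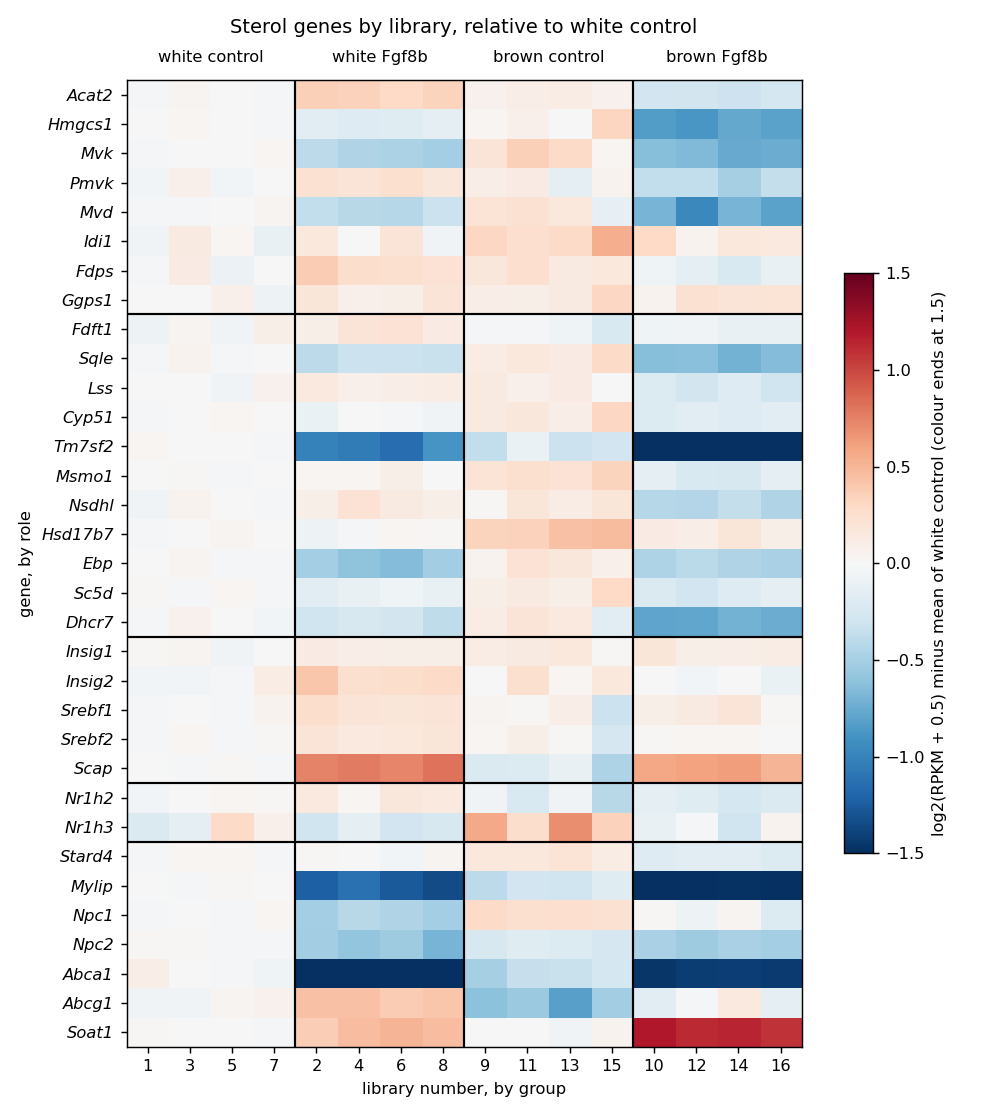
Each cell gives log2(RPKM + 0.5) of a gene's representative transcript in 1 library minus the mean of the 4 white controls, for the 33 genes (rows, by role) and 16 libraries (columns, by group); colour ends at 1.5. In the brown Fgf8b libraries most synthesis enzymes are below the white controls, and the white Fgf8b libraries show both signs.

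Of the 8 early enzymes, 4 were called higher and 3 lower in white, and 0 higher and 6 lower in brown, beside 36.3% higher and 29.5% lower of all genes in white and 36.7% and 34.7% in brown. Levels are in RPKM, reads scaled to transcript length and library size, of 1 representative RefSeq transcript per gene, and changes are on the log2 scale of the summed values. Acat2, the cytosolic thiolase that joins acetyl-CoA units at the start of the pathway, measured 40.7, 42.5, 41.3 and 40.6 RPKM in white controls and 53, 52.4, 51 and 51.9 in white Fgf8b libraries. Brown values of Acat2 were 43.2, 44.2, 44.6 and 43.2 in controls and 33.9, 34, 33.2 and 34.3 with Fgf8b. Its Fgf8b libraries lay above every control in white and below every control in brown: log2 change 0.33 (SE 0.032, adjusted p = 3.41e-08) in white and -0.36 (SE 0.032, adjusted p = 8.33e-09) in brown. Hmgcs1, which makes HMG-CoA, measured 109, 112, 109 and 107 RPKM in white controls and 98.2, 95.8, 96.5 and 98.6 in white Fgf8b libraries. Brown values of Hmgcs1 were 111, 115, 109 and 137 in controls and 60.8, 59.6, 63.9 and 62.4 with Fgf8b. It fell in both depots without overlap, with a log2 change of -0.17 (SE 0.049, adjusted p = 0.00503) in white and -0.93 (SE 0.049, adjusted p = 3.26e-12) in brown, and brown control 15 was the highest of all 16 libraries. Of the sequences shown above, its promoter is the one with the sterol regulatory element match.

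Mevalonate kinase, Mvk, measured 34.1, 35.1, 34.9 and 35.5 RPKM in white controls and 26.6, 25.4, 25.1 and 24.3 in white Fgf8b libraries. Brown values of Mvk were 39.9, 45.1, 42.6 and 35.6 in controls and 22.2, 21.9, 20.4 and 20.7 with Fgf8b. The groups did not overlap within either depot, and the log2 change was -0.42 (SE 0.054, adjusted p = 1.22e-06) in white and -0.94 (SE 0.054, adjusted p = 1.17e-11) in brown. The next kinase, Pmvk, measured 37.7, 40.9, 37.4 and 38.7 RPKM in white controls and 45.2, 44.1, 45.7 and 43.7 in white Fgf8b libraries. Brown values of Pmvk were 41.4, 42.2, 35.1 and 40 in controls and 29.7, 29.8, 27.3 and 30 with Fgf8b. Pmvk rose in white, log2 change 0.20 (SE 0.051, adjusted p = 0.002), and fell in brown, -0.43 (SE 0.051, adjusted p = 3.88e-07), each time without overlap. The decarboxylase Mvd, which yields isopentenyl diphosphate, measured 37.3, 37.5, 37.7 and 39 RPKM in white controls and 29.1, 28.2, 28 and 30.2 in white Fgf8b libraries. Brown values of Mvd were 43.7, 44.3, 42.3 and 34.8 in controls and 23.1, 19.1, 23.2 and 21.5 with Fgf8b. Like Mvk it fell in both depots, log2 change -0.40 (SE 0.065, adjusted p = 2.19e-05) in white and -0.92 (SE 0.065, adjusted p = 2.5e-10) in brown, so 3 consecutive enzymes of the mevalonate steps fell in brown while the middle one rose in white.

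Fdps, farnesyl diphosphate synthase, measured 47, 51.7, 44.7 and 47.2 RPKM in white controls and 62, 57.2, 56.2 and 55.2 in white Fgf8b libraries. Brown values of Fdps were 53.8, 56.9, 52.1 and 53.2 in controls and 45.4, 42.8, 40.6 and 44 with Fgf8b. It went up in white, log2 change 0.27 (SE 0.048, adjusted p = 6.24e-05), and down in brown, -0.33 (SE 0.048, adjusted p = 5.72e-06), with no overlap between control and Fgf8b libraries. Idi1, the isomerase of isopentenyl diphosphate, was low (0.712 to 1.41 RPKM over the 16 libraries, 34 to 65 reads) and was not called for Fgf8b in white (0.27, SE 0.149, adjusted p = 0.12) or brown (-0.24, SE 0.149, adjusted p = 0.152). Ggps1, which makes geranylgeranyl diphosphate off the sterol line, lay between 10.1 and 13.3 RPKM in every library, with a log2 change of 0.12 (SE 0.051, adjusted p = 0.0455) in white and 0.01 (SE 0.051, adjusted p = 0.906) in brown. The white call of Ggps1 was lost with either other scaling (0.06, adjusted p = 0.325 and 0.344), with no filter on low values (0.12, 0.0573) and without white control 3 (0.11, 0.0898), white control 7 (0.10, 0.125), white Fgf8b 2 (0.13, 0.0513), white Fgf8b 6 (0.12, 0.0752) or white Fgf8b 8 (0.09, 0.138).

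**Figure D2:**
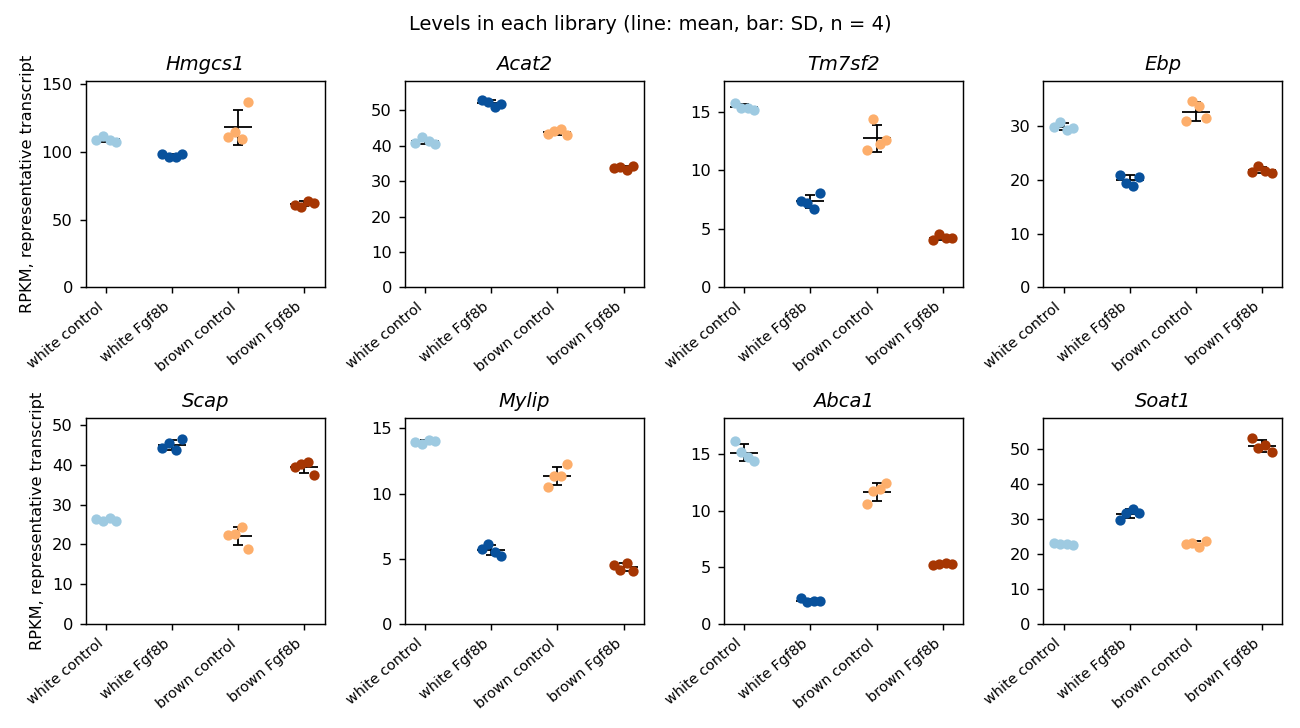
RPKM of the representative transcript in each library (points) for 8 genes, with the mean and SD of the 4 libraries of each group; every axis starts at 0. Acat2 moves up in white and down in brown, Abca1 drops furthest in white, and Soat1 rises furthest in brown.

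Among the 11 enzymes from squalene on, 3 were called higher and 5 lower in white, and 0 higher and 10 lower in brown. The same shares of all genes apply, 36.3% higher and 29.5% lower in white and 36.7% and 34.7% in brown, and the 3 higher in white (Fdft1, Lss and Nsdhl) lost their calls with either other scaling. Squalene synthase, Fdft1, measured 30.9, 33.8, 31.5 and 34.9 RPKM in white controls and 35, 37.7, 38.2 and 35.7 in white Fgf8b libraries. Brown values of Fdft1 were 32.3, 32.1, 31.2 and 27.9 in controls and 31.3, 31.5, 30.2 and 30.3 with Fgf8b. White groups were just separate and brown groups overlapped, with a log2 change of 0.12 (SE 0.053, adjusted p = 0.0468) in white and -0.09 (SE 0.053, adjusted p = 0.139), not called, in brown. The white call of Fdft1 was lost with either other scaling (0.06, adjusted p = 0.307 and 0.295), without trend and robust moderation (0.12, 0.069), with no filter (0.12, 0.0701) and without white control 1 (0.09, 0.154), white control 5 (0.10, 0.131), white Fgf8b 4 (0.11, 0.105) or white Fgf8b 6 (0.10, 0.131). In brown Fdft1 was called lower without brown control 15 (-0.14, adjusted p = 0.0117), with median-of-ratios scaling (-0.14, 0.0241) and with upper-quartile scaling (-0.18, 0.00409). Squalene epoxidase, Sqle, a rate-controlling step of the late pathway, measured 73.5, 77.8, 74.2 and 74.6 RPKM in white controls and 57, 59.7, 60 and 59.2 in white Fgf8b libraries. Brown values of Sqle were 80.9, 83.5, 81.9 and 91.4 in controls and 48.1, 48.3, 45.7 and 47.6 with Fgf8b. It fell in both depots with clear gaps between the groups, log2 change -0.35 (SE 0.037, adjusted p = 1.03e-07) in white and -0.83 (SE 0.037, adjusted p = 2.96e-13) in brown.

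Lanosterol synthase, Lss, which closes the ring, measured 28.9, 28.9, 27.8 and 30.2 RPKM in white controls and 32.1, 30.6, 31.1 and 31.3 in white Fgf8b libraries. Brown values of Lss were 31.8, 30.4, 31.6 and 29.2 in controls and 25, 23.9, 25.2 and 23.5 with Fgf8b. It was higher in white, log2 change 0.14 (SE 0.037, adjusted p = 0.00353), and lower in brown, -0.31 (SE 0.037, adjusted p = 4.71e-07), and the white call was lost with either other scaling (0.08, adjusted p = 0.076 and 0.0779). The lanosterol demethylase Cyp51 measured 64.8, 66.3, 67.1 and 65.8 RPKM in white controls and 61.3, 66.2, 65.3 and 63.8 in white Fgf8b libraries. Brown values of Cyp51 were 72.6, 74.2, 70.6 and 82 in controls and 57, 58.4, 57.6 and 58.4 with Fgf8b. White groups overlapped and Cyp51 was not called there (-0.03, SE 0.035, adjusted p = 0.436), while it fell in brown (-0.37, SE 0.035, adjusted p = 2.03e-08). With either other scaling Cyp51 was called lower in white as well (-0.09, adjusted p = 0.0353 and 0.0355). Tm7sf2, a sterol reductase that acts after Cyp51, measured 15.7, 15.3, 15.3 and 15.2 RPKM in white controls and 7.37, 7.19, 6.72 and 8.08 in white Fgf8b libraries. Brown values of Tm7sf2 were 11.8, 14.3, 12.3 and 12.5 in controls and 4.06, 4.53, 4.22 and 4.19 with Fgf8b. It had the largest fall of the 19 enzymes in both depots, log2 change -0.93 (SE 0.057, adjusted p = 4.08e-11) in white and -1.49 (SE 0.057, adjusted p = 2.83e-14) in brown, and the library with the highest Fgf8b value in each depot was still well under the lowest control.

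Msmo1, the methylsterol monooxygenase, was the most abundant of these 11 enzymes, at 112, 113, 109 and 111 RPKM in white controls and 114, 113, 118 and 111 in white Fgf8b libraries. Brown values of Msmo1 were 128, 132, 129 and 141 in controls and 100.5, 94.5, 94.2 and 102 with Fgf8b. It was not called in white (0.04, SE 0.032, adjusted p = 0.306), where the groups overlapped, and fell in brown (-0.43, SE 0.032, adjusted p = 6.08e-10). Nsdhl, the dehydrogenase of the same demethylation, measured 36.9, 39.7, 38.5 and 37.9 RPKM in white controls and 40.6, 44.6, 41.9 and 40.6 in white Fgf8b libraries. Brown values of Nsdhl were 38.6, 43.3, 41.3 and 43.4 in controls and 28.4, 28.1, 29.7 and 27.7 with Fgf8b. It was higher in white, log2 change 0.13 (SE 0.046, adjusted p = 0.0191), and lower in brown, -0.55 (SE 0.046, adjusted p = 3.12e-09); the white call was lost with either other scaling (0.07, adjusted p = 0.212 and 0.222), without white control 1 (0.11, 0.0666) and without white Fgf8b 4 (0.10, 0.0758). Hsd17b7, the ketoreductase that completes the demethylation, measured 15.8, 16.2, 16.5 and 16 RPKM in white controls and 15.3, 15.9, 16.5 and 16.3 in white Fgf8b libraries. Brown values of Hsd17b7 were 20.4, 20.6, 22 and 22.6 in controls and 17.6, 17.3, 18.4 and 17.1 with Fgf8b. White groups overlapped with no call (-0.02, SE 0.051, adjusted p = 0.805), and in brown it fell (-0.29, SE 0.051, adjusted p = 4.76e-05).

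Ebp, the sterol isomerase, measured 29.9, 30.9, 29.3 and 29.6 RPKM in white controls and 20.9, 19.5, 18.9 and 20.6 in white Fgf8b libraries. Brown values of Ebp were 31, 34.8, 33.7 and 31.5 in controls and 21.5, 22.6, 21.8 and 21.3 with Fgf8b. It fell in white, log2 change -0.59 (SE 0.051, adjusted p = 7.02e-09), and in brown, -0.57 (SE 0.051, adjusted p = 9.84e-09), without overlap. The desaturase Sc5d measured 63.1, 60.6, 63.3 and 61.3 RPKM in white controls and 55.6, 57.2, 59.3 and 57.6 in white Fgf8b libraries. Brown values of Sc5d were 66, 68.2, 65.9 and 76.5 in controls and 53.1, 50.9, 54 and 56.1 with Fgf8b. It fell modestly in white (-0.17, SE 0.050, adjusted p = 0.00464) and further in brown (-0.43, SE 0.050, adjusted p = 3.22e-07), with no overlap in either; on the representative transcript alone the white value was -0.11 (adjusted p = 0.0262). Dhcr7, which reduces dehydrocholesterol to cholesterol, measured 23.8, 25.5, 24.5 and 23.7 RPKM in white controls and 19.7, 20.6, 20.1 and 18.6 in white Fgf8b libraries. Brown values of Dhcr7 were 26.3, 27.9, 27.1 and 21.8 in controls and 13.9, 14, 14.7 and 14.3 with Fgf8b. It fell in both depots, with a log2 change of -0.32 (SE 0.057, adjusted p = 7.45e-05) in white and -0.85 (SE 0.057, adjusted p = 1.35e-10) in brown, and brown control 15 was the lowest brown control.

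The control and Fgf8b libraries of a depot did not overlap for 15 of the 19 synthesis enzymes in white and for 16 in brown. Over the 13268 tested genes with a representative transcript the share without overlap was 67.9% in white and 65.6% in brown. The median synthesis enzyme, relative to the white control mean, lay between -0.08 and 0.03 (log2) in the 4 white Fgf8b libraries, between 0.11 and 0.17 in the brown controls and between -0.31 and -0.28 in the brown Fgf8b libraries. The 4 brown Fgf8b libraries thus sat close together and apart from the other 12.

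**Figure D3:**
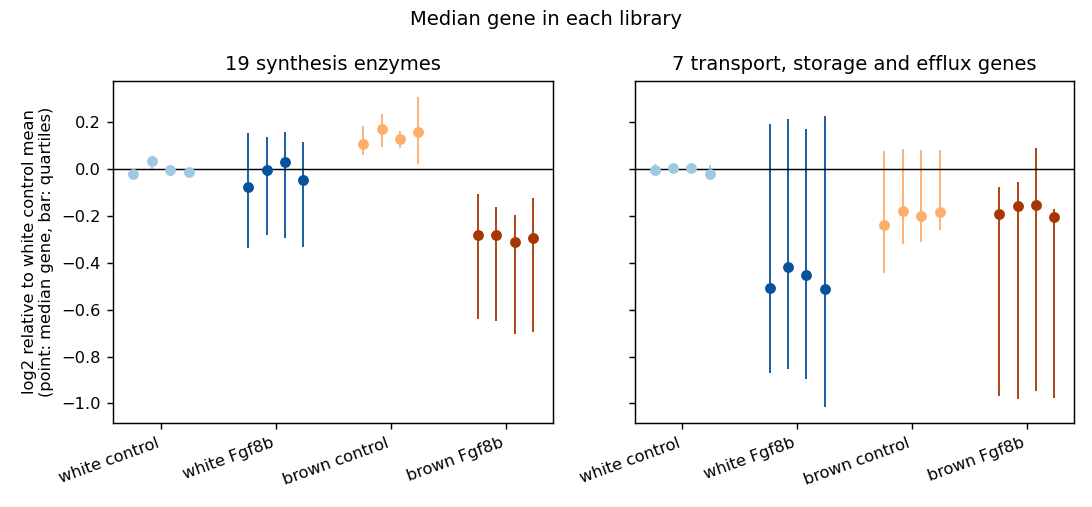
Median gene of the 19 synthesis enzymes (left) and of the 7 transport, storage and efflux genes (right) in each library, as log2(RPKM + 0.5) minus the white control mean; bars span the quartiles over genes. The synthesis medians of the brown Fgf8b libraries (-0.31 to -0.28) are the lowest, and for the transport genes the white Fgf8b libraries (-0.51 to -0.42) are.

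All 5 SREBP control genes were called higher in white, and in brown 1 was called higher (Scap) and 1 lower (Insig2), beside 36.3% of all genes higher in white and 36.7% higher and 34.7% lower in brown. Scap, the escort that senses sterol, measured 26.4, 26, 26.6 and 25.9 RPKM in white controls and 44.3, 45.5, 43.9 and 46.6 in white Fgf8b libraries. Brown values of Scap were 22.4, 22.7, 24.3 and 18.9 in controls and 39.4, 40.2, 40.6 and 37.5 with Fgf8b. It rose in both depots with wide gaps, log2 change 0.77 (SE 0.061, adjusted p = 1.74e-09) in white and 0.84 (SE 0.061, adjusted p = 3.96e-10) in brown, and brown control 15 was its lowest library. Insig2, an endoplasmic reticulum anchor, measured 14.8, 14.9, 15 and 16.6 RPKM in white controls and 20.6, 18.3, 18.6 and 18.8 in white Fgf8b libraries. Brown values of Insig2 were 15.2, 18.2, 15.6 and 17.2 in controls and 15.3, 14.9, 15.3 and 14.3 with Fgf8b. It rose in white, log2 change 0.32 (SE 0.069, adjusted p = 0.000425); in brown the groups overlapped, and the fall (-0.20, SE 0.069, adjusted p = 0.0156) lost its call without brown control 11 (-0.15, adjusted p = 0.0676), brown control 15 (-0.15, 0.0525) or brown Fgf8b 16 (-0.16, 0.0573).

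The other 3 control genes had smaller changes than Scap. Insig1, the anchor that is itself an SREBP target, stayed between 40.8 and 48.2 RPKM in all libraries, with a log2 change of 0.11 (SE 0.033, adjusted p = 0.0081) in white, lost with either other scaling (0.05, adjusted p = 0.216 and 0.222), and 0.02 (SE 0.033, adjusted p = 0.566) in brown. Srebf2, whose product drives the cholesterol genes, had a mean of 62.4 ± 1.25 RPKM in white controls and 70.4 ± 1.04 in white Fgf8b libraries (SD, n = 4). Its brown means were 61.5 ± 6.37 in controls and 63.3 ± 0.569 with Fgf8b. Its log2 change was 0.19 (SE 0.050, adjusted p = 0.00285) in white and 0.07 (SE 0.050, adjusted p = 0.218), not called, in brown. Srebf1, which encodes the more lipogenic SREBP, gave 0.22 (SE 0.066, adjusted p = 0.00742) in white and 0.13 (SE 0.066, adjusted p = 0.0919), not called, in brown. The brown value of Srebf1 was called on the representative transcript alone (0.15, adjusted p = 0.0475), without brown control 13 (0.17, 0.0275) and without brown Fgf8b 16 (0.16, 0.0494). Brown control 15 was the lowest library for Srebf1 (26.6 RPKM) and Srebf2 (52.2 RPKM). RNA levels of these genes do not show how much SREBP was cleaved.

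Of the LXR receptors, Nr1h2 (LXR beta) was present at 17.3 to 26.2 RPKM and was not called in white (0.09, SE 0.064, adjusted p = 0.251) or brown (-0.02, SE 0.064, adjusted p = 0.756); fitted on the white libraries alone, the white value was called (0.09, adjusted p = 0.0422). Nr1h3 (LXR alpha) was low, at 0.57 to 1.64 RPKM and 15 to 47 reads, and fell in brown, log2 change -0.78 (SE 0.155, adjusted p = 0.00019). Its lower white value (-0.42, SE 0.155, adjusted p = 0.0247) lost its call on the representative transcript alone (-0.24, adjusted p = 0.0616) and without white control 5 (-0.28, 0.112), white control 7 (-0.40, 0.055) or white Fgf8b 8 (-0.39, 0.0575).

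The 7 genes of transport, storage, efflux and receptor turnover moved in both directions. In white 2 were called higher and 4 lower (median log2 change -0.48), beside 36.3% and 29.5% of all genes. In brown 2 were called higher and 5 lower (median -0.30), beside 36.7% and 34.7% of all genes. Either way, 65.7% of all genes were called in white and 71.4% in brown. Abca1, which pumps cholesterol out to lipid-poor apolipoprotein, measured 16.2, 15.2, 14.8 and 14.4 RPKM in white controls and 2.27, 1.96, 2 and 2.02 in white Fgf8b libraries. Brown values of Abca1 were 10.6, 11.8, 11.9 and 12.5 in controls and 5.2, 5.3, 5.38 and 5.26 with Fgf8b. It fell 6.92-fold in white, log2 change -2.79 (SE 0.073, adjusted p = 1.54e-16), and 2.19-fold in brown, -1.13 (SE 0.073, adjusted p = 8.11e-11), and every Fgf8b library was below every control. Mylip, an LXR target that marks lipoprotein receptors for degradation, measured 13.9, 13.8, 14.1 and 14 RPKM in white controls and 5.71, 6.17, 5.55 and 5.23 in white Fgf8b libraries. Brown values of Mylip were 10.5, 11.3, 11.3 and 12.3 in controls and 4.5, 4.16, 4.68 and 4.06 with Fgf8b. Its Fgf8b values were all under its control values in both depots, log2 change -1.30 (SE 0.062, adjusted p = 1.05e-12) in white and -1.38 (SE 0.062, adjusted p = 3.31e-13) in brown.

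Soat1, which esterifies cholesterol for storage, measured 23.2, 22.7, 22.9 and 22.5 RPKM in white controls and 29.6, 31.7, 32.7 and 31.7 in white Fgf8b libraries. Brown values of Soat1 were 22.7, 23, 22 and 23.7 in controls and 52.9, 50.1, 50.9 and 49.1 with Fgf8b. It rose in white, log2 change 0.46 (SE 0.036, adjusted p = 1.57e-09), and 2.23-fold in brown, 1.15 (SE 0.036, adjusted p = 1.57e-15), without overlap. Npc2, the soluble lysosomal cholesterol carrier and the most abundant of the 33 genes in white controls, measured 179.8, 179, 175 and 174 RPKM in white controls and 124, 118, 122 and 109 in white Fgf8b libraries. Brown values of Npc2 were 149.7, 156, 154 and 149 in controls and 126, 122, 126 and 124 with Fgf8b. It fell in white (-0.59, SE 0.033, adjusted p = 1.39e-11) and in brown (-0.30, SE 0.033, adjusted p = 1.9e-07), again without overlap. Its membrane partner Npc1 fell too, from a mean of 12.6 ± 0.218 to 8.92 ± 0.297 RPKM in white (-0.48, SE 0.061, adjusted p = 1.34e-06) and from 15 ± 0.24 to 12.1 ± 0.968 in brown (-0.29, SE 0.061, adjusted p = 0.000285).

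Stard4, a soluble carrier of cholesterol between membranes and a known SREBP target, measured 23.7, 24.6, 24.7 and 23.8 RPKM in white controls and 24.5, 24.1, 23.6 and 24.9 in white Fgf8b libraries. Brown values of Stard4 were 27.1, 27.1, 28 and 26.1 in controls and 21.1, 21.6, 21.7 and 20.9 with Fgf8b. It was not called in white (0.07, SE 0.030, adjusted p = 0.0648) and fell in brown (-0.33, SE 0.030, adjusted p = 1.19e-08). Its small white value was called higher without white control 3 (0.08, adjusted p = 0.0451) and, through the spread shared by all groups, without brown control 15 (0.07, 0.0432). Abcg1, the pump that loads lipoprotein particles, was scarce, at 0.0539 to 0.819 RPKM and 5 to 91 reads per library. It rose in white (0.69, SE 0.163, adjusted p = 0.00112) and in brown (1.22, SE 0.163, adjusted p = 2.11e-06), so the 2 efflux pumps moved in opposite directions. On the representative transcript alone the Abcg1 values were 0.42 (adjusted p = 0.000225) in white and 0.58 (5.09e-06) in brown.

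**Figure D4:**
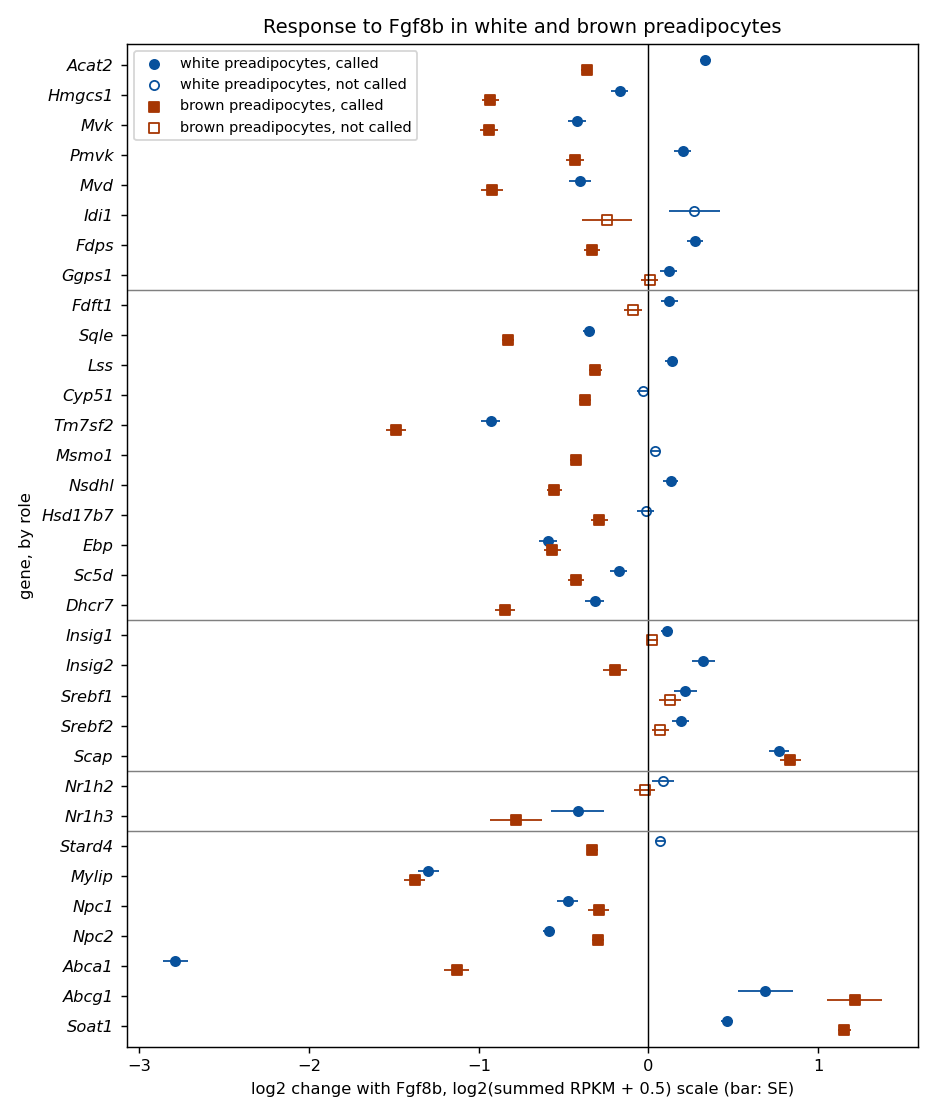
Log2 change with Fgf8b in white (circles) and brown (squares) preadipocytes for the 33 genes, on the log2(summed RPKM + 0.5) scale; bars are the standard error and filled marks were called at an adjusted p of 0.05. Most synthesis enzymes have their brown mark left of their white mark, while Abca1 has it to the right.

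Whether the depots differed in their response was tested directly, as the brown log2 change minus the white one. Of all genes 34.9% were called (17.1% higher, 17.8% lower, median -0.01). Of the 19 synthesis enzymes 0 were called higher and 16 lower, with a median difference of -0.52, and the count without brown control 15 was also 0 and 16. Hmgcs1 (-0.76, SE 0.069, adjusted p = 1.43e-07), Acat2 (-0.70, SE 0.046, adjusted p = 2.23e-09), Nsdhl (-0.68, SE 0.065, adjusted p = 2.7e-07), Pmvk (-0.63, SE 0.072, adjusted p = 2.09e-06) and Fdps (-0.61, SE 0.068, adjusted p = 1.85e-06) had the most negative differences. Tm7sf2 (-0.56), Dhcr7 (-0.53), Mvd (-0.52), Mvk (-0.52), Sqle (-0.48), Msmo1 (-0.47), Lss (-0.45), Cyp51 (-0.34), Hsd17b7 (-0.27), Sc5d (-0.25) and Fdft1 (-0.21) completed the 16. The call of Fdft1 (adjusted p = 0.0333) was lost without trend and robust moderation (-0.21, 0.0548), with no filter (-0.21, 0.0531), on the representative transcript (-0.16, 0.0695) and on the sum over RefSeq entries (-0.16, 0.0763). It was also lost on leaving out any 1 of 9 libraries, with adjusted p from 0.0509 to 0.0746: white control 1, white Fgf8b 4, white control 5, white Fgf8b 6, brown control 9, brown control 11, brown control 13, brown Fgf8b 14 and brown Fgf8b 16.

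Ebp, Ggps1 and Idi1 were the synthesis enzymes not called for a difference. For Ebp the estimate was 0.02 with a 95% interval (normal, from the standard error) of -0.12 to 0.17, so that a difference the size of that in Hmgcs1 lies outside its interval, and for Ggps1 it was -0.11 (-0.25 to 0.03). For Idi1 it was -0.52 (-0.93 to -0.10), which leaves out 0 before adjustment, with an adjusted p of 0.0676; it was called without brown control 11 (-0.62, 0.0299) or white Fgf8b 8 (-0.58, 0.0487). Of the control genes Insig2 differed (-0.52, SE 0.097, adjusted p = 0.000404), while Scap (0.07, 95% interval -0.10 to 0.23) and Srebf2 (-0.12, -0.26 to 0.02) were not called. Without brown control 15 the Srebf2 difference was called (-0.19, adjusted p = 0.000271), as were those of Srebf1 (-0.18, 0.0134, against -0.09 with it), Nr1h2 (-0.18, 0.04, against -0.11) and Abcg1 (0.61, 0.0459, against 0.53). Over the 33 genes the counts for the difference were 3 higher and 18 lower with that library and 4 higher and 21 lower without it. Among the transport genes Abca1 (1.66, SE 0.104, adjusted p = 1.34e-09), Soat1 (0.69, SE 0.051, adjusted p = 1.18e-08) and Npc2 (0.29, SE 0.047, adjusted p = 0.000104) were called higher in brown minus white and Stard4 lower (-0.40, SE 0.043, adjusted p = 1.16e-06). Mylip (-0.08, 95% interval -0.25 to 0.09) and Npc1 were not called. Without brown Fgf8b 16 the Npc1 difference was called (0.25, limma adjusted p = 0.0136). With 0.1 in place of 0.5 added to the RPKM, that of Abcg1 was called (0.95, limma adjusted p = 0.0499).

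**Figure D5:**
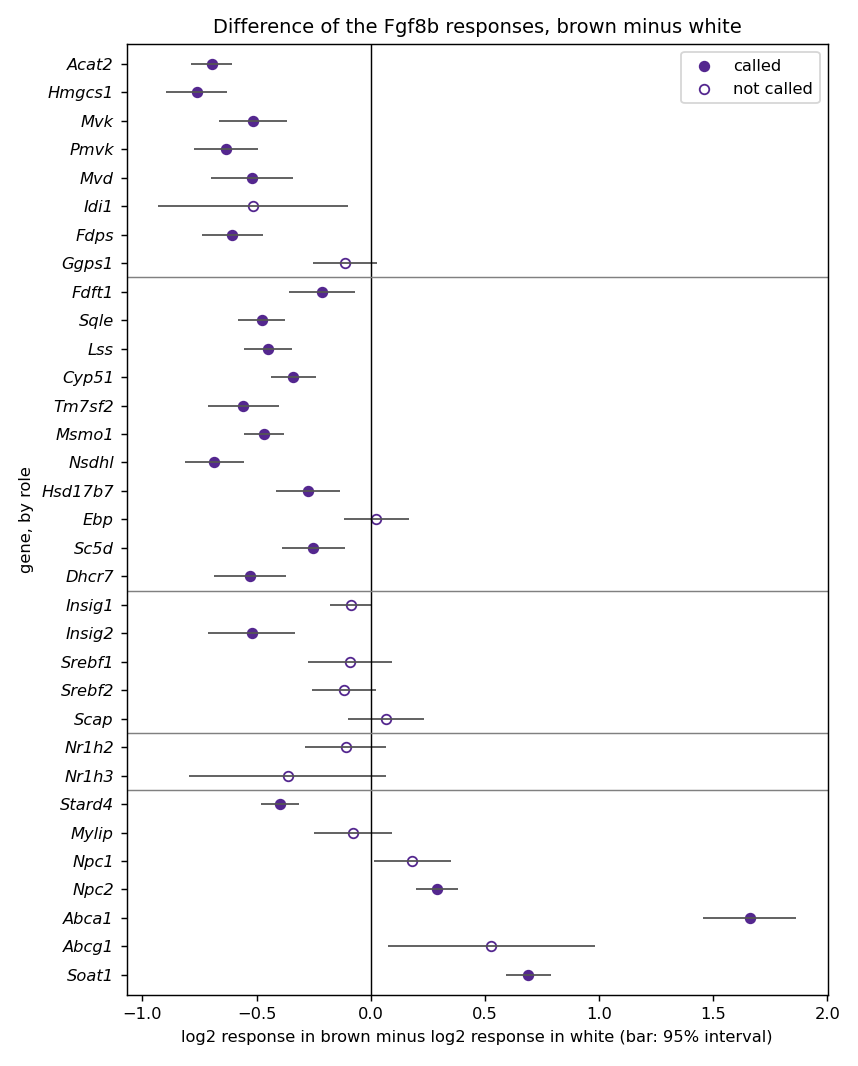
Brown minus white difference of the log2 responses to Fgf8b for the 33 genes, with bars of 95% intervals; filled points were called at an adjusted p of 0.05. Of the 19 synthesis enzymes 18 lie below 0, and the largest positive value is that of Abca1 (1.66).

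Between the depots without Fgf8b, 9 of the 19 synthesis enzymes were called higher in brown than in white and 1 lower (Tm7sf2), with a median log2 difference of 0.13; of all genes 33.9% were called, 18.1% higher and 15.9% lower. The largest such differences were those of the scarce Idi1 (0.59, SE 0.149, adjusted p = 0.00501), of Hsd17b7 (0.37, SE 0.051, adjusted p = 1.13e-05), of Mvk (0.29, SE 0.054, adjusted p = 0.000337) and of Msmo1 (0.24, SE 0.032, adjusted p = 7.67e-06). On the representative transcript alone the Idi1 value was 0.35 (adjusted p = 0.00322). Without brown control 15 the counts were 12 higher and 1 lower, with Acat2, Dhcr7, Ebp, Lss and Mvd gained. That library carried high values of Hmgcs1, Sqle, Cyp51 and Sc5d and low values of Mvk, Mvd and Dhcr7. The higher brown value of Sc5d (0.15, adjusted p = 0.0292) lost its call without it (0.08, adjusted p = 0.0668), without white control 3 (0.14, 0.0641), without white control 7 (0.13, 0.0777), without trend and robust moderation (0.15, 0.052) and fitted on the control libraries alone (0.15, 0.0838). That of Nsdhl (0.13, 0.0313) lost its call on the control libraries alone (0.13, 0.0775) and on leaving out any 1 of 6 libraries, with adjusted p from 0.052 to 0.102: white control 1, white control 5, white control 7, brown control 11, brown control 13 and brown control 15. The transport genes split, with Npc1 (0.26) and Stard4 (0.19) higher in brown controls and Abca1 (-0.35), Mylip (-0.29), Npc2 (-0.22) and Abcg1 (-1.24, or -0.63 on the representative transcript) lower.

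With Fgf8b in both depots, 14 of the 19 synthesis enzymes were called lower in brown than in white and 1 higher, with a median log2 difference of -0.31, where 51.6% of all genes were called, 26.9% higher and 24.7% lower. Without brown control 15, which enters here only through the shared spread, 15 were called lower and 1 higher, with Sc5d gained (-0.11, adjusted p = 0.00793). With upper-quartile scaling 15 were called lower and 0 higher. Tm7sf2 (-0.77, SE 0.057, adjusted p = 2.6e-09), Hmgcs1 (-0.66, SE 0.049, adjusted p = 2.56e-09) and Acat2 (-0.62, SE 0.032, adjusted p = 2.25e-11) differed most. The 1 enzyme higher in brown, Ebp (0.14, adjusted p = 0.0314), lost its call with upper-quartile scaling (0.11, 0.0856), without trend and robust moderation (0.14, 0.053) and on leaving out any 1 of 5 libraries, with adjusted p from 0.057 to 0.122: white Fgf8b 4, white Fgf8b 6, brown Fgf8b 10, brown Fgf8b 12 and brown Fgf8b 14. Abca1 was the reverse of the enzymes, 2.49-fold higher in brown (1.31, SE 0.073, adjusted p = 5.52e-11), although it was lower in brown than in white controls, and Soat1 was higher as well (0.69, SE 0.036, adjusted p = 2.58e-11). The comparisons share libraries, so they are not independent of each other: each depot's control and Fgf8b libraries enter the response, the depot comparison and the difference of responses.

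Other genes of the pathway, in 5 lists of 50 symbols of which 49 stood in the table, did not share 1 direction. The shares of all genes to set beside the counts are 36.3% higher and 29.5% lower in white, and 36.7% and 34.7% in brown. Of 8 proteases and ligases around SREBP, 6 were called higher and 2 lower in white and 5 and 1 in brown; Mbtps2, the protease that makes the second SREBP cut, rose by 0.54 (log2) in white and 0.65 in brown, the ligase gene Rnf145 by 0.54 in white, and Aup1, a partner of such ligases, by 0.53 in brown. Of 10 enzymes of the isoprenoid branch, which uses the same precursors for prenylation, dolichol and ubiquinone, 6 were higher and 1 lower in white and 6 and 3 in brown, with Pdss1, of the ubiquinone side chain, at 0.61 and 0.88 and Rabggta, of Rab prenylation, at 0.62 and 0.77. Of 7 further sterol enzymes and electron donors, 3 were higher and 3 lower in each depot. Cyb5, the electron carrier cytochrome b5, fell by 0.64 in white. Por, the reductase that feeds electrons to Cyp51 and Sqle, rose by 0.51 in white and 0.88 in brown, and Lbr, which has the same reductase activity as Tm7sf2, rose by 0.63 in brown, from 20.9 ± 0.438 to 32.4 ± 0.892 RPKM (SD, n = 4).

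Of 17 genes of sterol uptake, transport and ester turnover, 3 were called higher and 8 lower in white and 4 and 11 in brown. Vldlr, a lipoprotein receptor that MYLIP also targets, fell by 1.93 on the log2 scale in brown, and Nceh1, which hydrolyses cholesteryl esters, rose by 1.2. In white, Lrpap1, a chaperone of lipoprotein receptors, fell by 0.85 and Lipa, the lysosomal acid lipase, by 0.76. Of 7 oxysterol enzymes and LXR partners, 3 were higher and 2 lower in white and 2 and 4 in brown. Ch25h, which makes an oxysterol from cholesterol, rose by 0.77 in white and 1.95 in brown, to 16.4 ± 0.711 RPKM (SD, n = 4), and Cyp7b1, which breaks oxysterols down, fell by 2.42 in white and 2.47 in brown. Every change named for these lists had an adjusted p of 3.14e-05 or less (limma). The background is again 65.7% called in white (36.3% higher, 29.5% lower) and 71.4% in brown (36.7% higher, 34.7% lower).

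Markers of other cells moved with the treatment, in both directions for the leukocyte and endothelial lists. The summed level of 10 macrophage and leukocyte markers was 5.32 to 6.12 RPKM in white controls, 6.86 to 7.65 in white Fgf8b, 6.43 to 8.93 in brown controls and 9.50 to 10.3 in brown Fgf8b libraries. Cd14 was the most abundant of them in each group, at a mean of 3.01, 5.12, 3.58 and 7.87 RPKM in that order, while Ptprc, Emr1, C1qa and C1qb averaged under 0.1 RPKM in every group. Of the 4 that passed the filter Cd14 and Cd68 were called higher and Lyz2 and Csf1r lower in each depot, with Lyz2 going from a mean of 1.22 to 0.0919 RPKM in white and from 2.96 to 0.171 in brown. The 6 endothelial markers summed to 11 to 11.7, 2.40 to 2.97, 7.34 to 8.61 and 1.46 to 1.75 RPKM in the same order, with Tie1 and Vwf under 0.1 throughout. Tek made up most of the control sums and went from 9.29 to 0.608 RPKM in white and from 6.58 to 0.38 in brown; Kdr fell too, while Cdh5 rose from 1.13 to 1.92 and from 0.571 to 0.844. Sums of 6 Schwann cell markers were 8.73 to 10.3, 2.62 to 3.5, 12.8 to 15.2 and 3.54 to 4.57 RPKM. Of the 5 tested, 0 were called higher and 3 lower in white, and 0 and 5 in brown. The lower shares of all genes were 29.5% and 34.7%. Between control depots 4 were called higher in brown and 1 lower, beside 18.1% and 15.9% of all genes. Sox10 averaged 1.23 RPKM in brown and 0.0265 in white controls, Cdh19 0.553 and 0.0317, and Mbp 2.1 and 3.35. The 7 skeletal muscle markers summed to 5.06 to 7.50, 2.08 to 2.85, 8.54 to 10.6 and 2.26 to 2.70 RPKM, most of it Acta1. The part of these markers, and of the preadipocyte and mature adipocyte markers given above, in the sterol gene results was not tested.

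Some of these genes share sequence with others, which the authors' counting could split in ways not stated here. Of all 31-base words in its transcripts, Acat2 shared 43.7% with Acat3, a neighbouring copy, Fdft1 17.6% with Ctsb and further words with a predicted gene, Fdps 24.6% and Idi1 18.4% with predicted genes, and Tm7sf2 10.7% with Vps51. Levels of Acat2, Fdft1, Fdps and Idi1 are uncertain for this reason. So are those of Ggps1, Hmgcs1, Scap and Tm7sf2, which shared 11.3% to 14.9% of their words in all. The size of any error in the levels was not measured, and the shared percentages do not give it. Of the remaining 25 genes, none shared more than 5.78%.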

How the data were processed

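RNA of 16 libraries, 4 in each of 4 groups, was analysed. Per the labels' protocols, total RNA was taken up in Trisure, column-purified and turned into libraries (TruSeq RNA Sample Prep kit v2). CASAVA and bcl2fastq were used, per the submitters' processing notes. The aligner, genome build, annotation and strand setting were not given in the sources used here. The authors deposited RPKM per transcript, written with decimal commas. The values were read and checked: of 168326 entries in each library, 0 were not numeric and 0 were below 0. Entries with no symbol (23172, 13.8%) and 808 repeated accessions were left out, none of the 33 genes among them, and RPKM were summed by symbol. No column of per-sample values was left unused.

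Depth was recovered from the steps of low values, with 95.6% to 96.0% of the values used within 0.1 of a whole read. Genes at 0.5 RPKM or more in at least 4 libraries were tested on log2(summed RPKM + 0.5) with limma 3.58.1 (R 4.3.3, trend and robust moderation), 1 model of 4 groups, Benjamini-Hochberg adjusted over 15222 genes; a call is an adjusted p under 0.05. Fold changes on this scale understate those of low genes. Printed levels are those of each gene's representative RefSeq transcript. The method was also run on simulated data in which few genes changed, all in the white Fgf8b group. With Fgf8b most genes were called in the real data, so that run does not test the calls given here. Alternatives were other pseudocounts, filters, scalings, transcript choices, group subsets and moderation, and leaving out each library.

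The 33 genes and the further lists were chosen with earlier results of these data known. The 24 genes given with every library's value averaged at least 1 RPKM over all libraries and were called with a change of 1.5-fold or more in an Fgf8b comparison, or called for the difference of responses. From each further list, the 2 called genes of largest change per Fgf8b comparison are named. Promoter sequences are from RefSeq. Python 3.11.15, pandas 2.3.3 and matplotlib 3.10.9 were used.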

Additional observations from a re-analysis of the deposited data

Results flagged for a closer look

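Of 132 groups of 4 libraries tested for the 33 genes, 3 had a library far from its other 3, where chance gives about 1 in 20. Pmvk was at 27.3 RPKM in brown Fgf8b library 14, the lowest of its group. Idi1 was at 1.41 RPKM in brown control 15, the highest of its group. Insig2 was at 16.6 RPKM in white control 7, the highest of its group.

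The response to Fgf8b differed between brown and white preadipocytes, by the limma test of the difference itself, for 21 of the 33 genes. On the log2 scale, brown minus white, the early enzymes Acat2 (-0.70), Hmgcs1 (-0.76), Mvk (-0.52), Pmvk (-0.63), Mvd (-0.52) and Fdps (-0.61) had lower values in brown. So did the squalene and ring enzymes Fdft1 (-0.21), Sqle (-0.48), Lss (-0.45), Cyp51 (-0.34), Tm7sf2 (-0.56), Msmo1 (-0.47), Nsdhl (-0.68), Hsd17b7 (-0.27), Sc5d (-0.25) and Dhcr7 (-0.53), with the anchor Insig2 (-0.52) and the carrier Stard4 (-0.40). The differences were positive for Npc2 (0.29), Abca1 (1.66) and Soat1 (0.69). Across all genes 34.9% were called for this difference. Without brown control 15, 4 of the 33 genes were called with a positive and 21 with a negative difference, against 3 and 18 with it.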

How the results depend on the processing

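Each comparison of 2 groups was recomputed under 10 other settings and without each of its 8 libraries, and the difference of responses under 9 settings and without each of the 16 libraries. The count of listed genes called higher in white preadipocytes, 14, was 9 when libraries were scaled by the median of ratios and 9 when scaled by the upper quartile. Of all genes, 5521 called higher in white became 4743 and 4738 under these scalings. Of the 19 synthesis enzymes, 7 called higher in white became 3 and 3. The 1 called higher between Fgf8b depots was 0 with the upper quartile and 0 without trend and robust moderation, 2 on the representative transcript and 2 on the sum over RefSeq entries, and 0 to 1 on leaving out a library. The other counts, over all genes, the 33 genes and the 19 enzymes, stayed within 1.5 times of their values in these runs. Of 119 called single-gene results, 105 kept their call and direction under every alternative run for them, none changed sign, and 73 of 2289 values lost the call. By comparison these were 3 for Fgf8b in brown, 28 for Fgf8b in white, 20 for depot under control, 9 for depot under Fgf8b and 13 for the difference of responses, and the cause was not tested. They fall on 14 results, those of Fdft1, Ggps1, Insig1, Lss, Nr1h3 and Nsdhl in white, Insig2 in brown, Insig1, Nr1h2, Nsdhl and Sc5d between control depots, Ebp and Srebf2 between Fgf8b depots, and Fdft1 for the difference. Of 46 results not called, 23 were called in at least 1 of these runs (40 values). Depth limits Idi1, Nr1h3 and Abcg1, with 5 to 91 reads per library.

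No paired analysis was possible because the groups share no replicate number and no label pairs their libraries.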
